A study of Rattus norvegicus with 12 samples.

Results

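The 10 circadian clock genes described here are Clock, Npas2, Per1, Per2, Per3, Cry1, Cry2, Nr1d1, Nr1d2 and Dbp. They were chosen by symbol, 10 of the 17494 genes listed in the count table, and all 10 passed the filter on low counts. RNA was taken from the hippocampus of 12 adult male Long Evans rats of wild-type genotype, 1 library per rat (the sample labels give the tissue only as brain). Every rat had been exposed to 3 blasts, 1 per day, at 10 weeks of age and was killed 29 weeks later. The 6 blast-boldine rats ate chow that held boldine, a plant alkaloid, at 500 mg/kg from week 2 after blast, and the 6 blast-controls ate chow without it. No rat without blast is part of these data, so a difference here is one between diets after blast and not an effect of blast. The rats lived under 12 h of light per day, with lights on at 7 a.m., and the hour at which each brain was taken is not given in the sources used here.

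In the mammalian clock, CLOCK or its relative NPAS2 binds with BMAL1 (listed here as Arntl) to E-boxes and switches on the Per, Cry, Nr1d1, Nr1d2 and Dbp genes. PER and CRY proteins return to the nucleus and block this activation, and the nuclear receptors NR1D1 and NR1D2 (REV-ERB alpha and beta) repress Arntl. The loop runs in most tissues, hippocampus among them, so that transcript levels of these genes depend on the hour of sampling, with Arntl and Npas2 high when Dbp and the Per genes are low. Per1 and, less so, Per2 also respond directly to glucocorticoids and to neuronal activity.

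The library of blast-control rat 6 held 74008 counts, against 10148474 to 40850106 in the other 11, and a single count there came to 15.8 CPM, a unit in which counts are divided by the TMM-adjusted library size. Clock had 0 counts in rat 6, Npas2 and Cry1 had 1 each, and the highest of the members, Dbp, had 12. A floor of 3 counts corresponds to 47.5 CPM in rat 6 and to at most 0.307 CPM in any other rat, so values of rat 6 are imprecise. The exact permutation tests nevertheless count rat 6 as fully as any other rat. With rat 6 the mean log2 difference of Clock was 1.72, and without it -0.01. The fold changes of the members between diets are therefore also given without rat 6. The library names end in suffixes 1 to 6, each used by a pair of libraries, and the libraries were placed in sets A (control rats 1, 7 and 9, boldine rats 20, 32 and 35) and B (control rats 4, 5 and 6, boldine rats 12, 17 and 19). Rat numbers were assumed to rise with the suffix within each set, a rule that the labels do not give, which left 4 possible assignments. The one that accounted for most of the first principal component over 11 libraries was chosen. It accounted for 95.1% of that component, which held 66% of the variance, and treatment accounted for 1.53%. Both diets are equally present in both sets. The summed level of dentate granule cell markers (Prox1, C1ql2 and Calb1) lay between 262 and 367 CPM in the 11 libraries. Of 4 markers of the suprachiasmatic nucleus, the brain's master clock, Six6 and Lhx1 stayed under 3 counts in each of the 11. The sum of the 4 lay between 5.65 and 22.7 CPM. Most of that sum was Vip alone, at 5.55 to 21.5 CPM, while Avp had a mean of 0.721 CPM.

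The clock genes were present at moderate levels in every rat other than rat 6. On a scale per kilobase of exon, which allows genes to be compared, Dbp, a transcription factor of the clock's output, was the highest, with a mean level of 50.4 ± 6.42 CPM per kb (SD, n = 11). Cry2, a repressor, followed at 35.9 ± 3.34 CPM per kb. The ranges of the 11 rats met between these neighbours, at 38.4 to 60.0 CPM per kb for Dbp and 32.3 to 42.2 CPM per kb for Cry2. Cry2 lay above the highest rat of every lower member except Per3. A middle group held Nr1d2 (22.9 ± 3.38 CPM per kb), Nr1d1 (22.5 ± 4.06), Npas2 (19.7 ± 6.19), Per3 (18.2 ± 10.1), Clock (17.3 ± 2.16), Per1 (13.9 ± 2.92) and Per2 (12.3 ± 4.06), and neighbours in that order did not differ beyond their spread. Cry1, the other cryptochrome, was the lowest at 4.85 ± 0.412 CPM per kb, and its highest rat (5.45 CPM per kb) lay under the lowest rat of every other member. The files do not separate fewer expressing cells from less RNA per cell, here or in any comparison that follows.

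The first comparison asked whether boldine chow went with another level of the clock genes. None of the 10 passed an adjusted p of 0.05 in edgeR, and neither did any of the 12325 genes tested (0% called). At an unadjusted p under 0.05, 132 of 12325 genes (1.07%) and 1 member, Per1, were called. DESeq2 likewise called 0 of 15690 genes after adjustment and 85 (0.542%) before it, with Per1 again the only member. The fitted log2 fold change was below 0 for 8 of the 10 members, against 48.7% of all genes, and its median was -0.09 for the members and 0.00 for all genes. Without rat 6 it was below 0 for 9 members, against 50.3% of all genes. No member had groups of rats that did not overlap, with or without rat 6, while 0.0811% of all genes did with it and 0.146% without it.

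**Figure D1:**
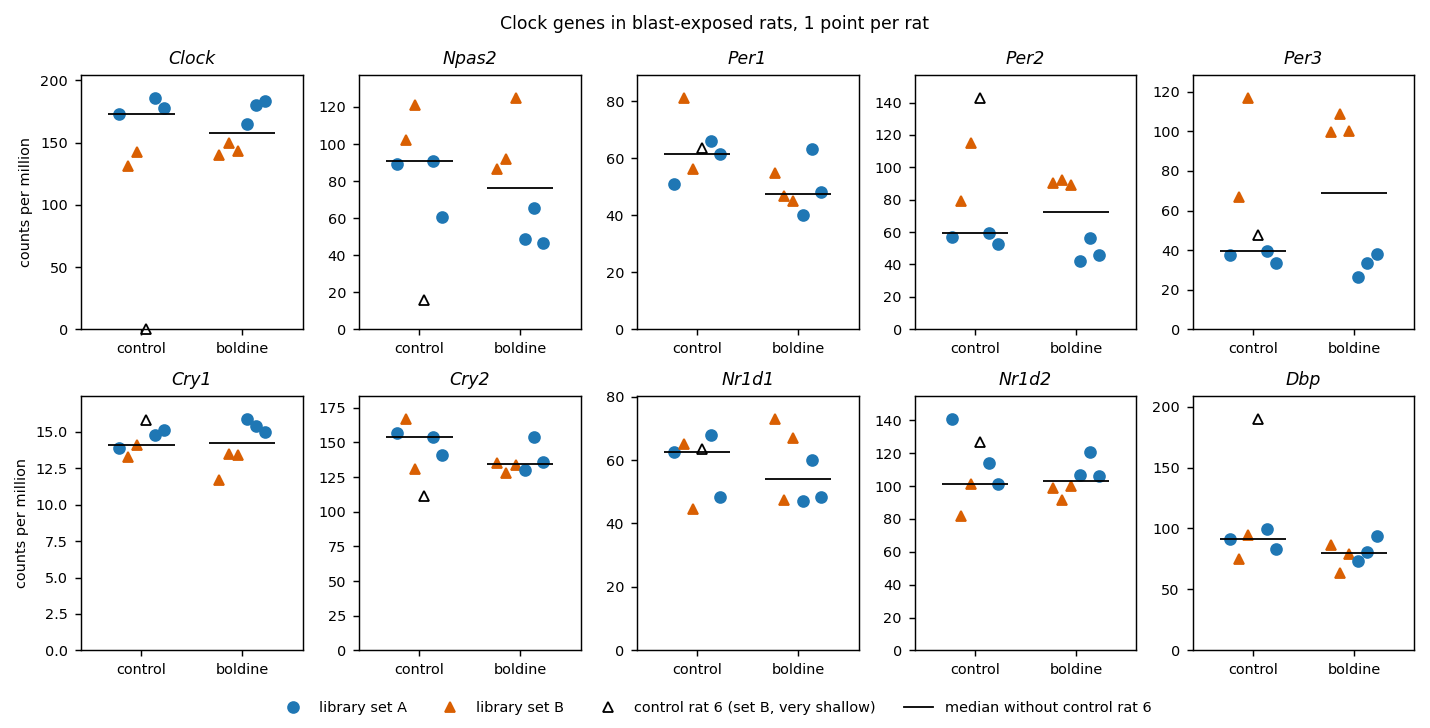
Level of each clock gene (CPM, linear axis from 0) in the 6 blast-control and 6 blast-boldine rats, 1 point per rat, with circles for library set A, triangles for set B, an open triangle for the shallow control rat 6, and a line at the median without rat 6. The diets overlap in all 10 panels, 4 boldine rats lie under every control rat for Per1, and the sets separate for Per2 and Per3 and, outside rat 6, for Clock.

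Per1, the period gene that reacts fastest to hormones and activity, was the member with the smallest p between diets. Its level, which rested on 4 counts in rat 6, was 50.9 CPM in the lowest control rat, 62.4 at the median and 81.2 in the highest, and 40.1, 47.4 and 63.3 CPM in the boldine rats. Of the 6 boldine rats, 4 (rats 17, 19, 20 and 35) lay under every control and 5 under the control median, while rat 32 lay within the upper part of the controls. The log2 fold change was -0.35 (SE 0.15, 95% interval -0.68 to -0.02), which is 0.787 times the control level, with an unadjusted p of 0.0407 and an adjusted p of 1 in edgeR. The exact two-sided permutation test of the mean log2 CPM gave p = 0.026 over 924 assignments, and p = 0.035 with assignments kept within library sets. Without rat 6 the difference was also -0.35 (unadjusted p = 0.0389 in edgeR, exact permutation p = 0.0433), and with the set in the fit as well it was -0.35 (SE 0.13, unadjusted p = 0.0224, adjusted p = 0.898). Within set A alone it was -0.24 (unadjusted p = 0.191), where 3.35% of all genes had an unadjusted p under 0.05, and within set B -0.49 (unadjusted p = 0.0345, both edgeR), where 5.67% did. It was the only member past 0.05 of 10 tested in this way, and leaving out control rat 4, the highest, brought it to -0.25 (unadjusted p = 0.123) while leaving out boldine rat 20, the lowest, brought it to -0.28 (unadjusted p = 0.102).

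A list of 9 genes induced by glucocorticoids or by neuronal activity, stimuli to which Per1 also responds, was examined beside it. The list was drawn up with earlier results of these data known, and the paper names Nr4a1 among its nominally lower candidates. The counts for this list are therefore a description and not independent evidence. All 9 had log2 fold changes below 0 in edgeR with all 12 rats, against 48.7% of all genes. They ran from -0.63 to -0.05 with a median of -0.24, and 1 of the 9 passed an unadjusted p of 0.05. The glucocorticoid-induced genes Fkbp5 and Tsc22d3, placed in the list of genes that follow the clock, did not share this direction, at -0.01 (SE 0.31) and 0.09 (SE 0.25), and at 0.14 and 0.01 without rat 6. The gene of the list past 0.05 was Nr4a1, an immediate early nuclear receptor. It was at -0.63 (SE 0.17, unadjusted p = 0.00279, adjusted p = 1) and at -0.58 without rat 6 (SE 0.15, unadjusted p = 0.00221, edgeR). Its control rats other than rat 6 ranged from 30.2 to 58.5 CPM and its boldine rats from 26.4 to 30.9, so that the groups overlapped only at their edges, and rat 6 stood at 79.2 CPM from 5 counts. Without rat 6 there were 3 of 9 (Nr4a1, Arc and Sik1), against 1.40% of all genes, and with library set in that fit 4 of 9 (with Egr1), against 5.35%; none passed after adjustment. Whether the level of these genes bears on that of Per1 was not tested.

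Per1 sits on chromosome 10 (53805535 to 53814431, plus strand, in mRatBN7.2), Per2 on chromosome 9 (92007296 to 92049459, minus strand) and Per3 on chromosome 5 (161460228 to 161494982, minus strand). The 250 bases before the annotated start of each Per gene are shown as a description, and those of Nr1d1 because they hold the full E-box. Whether the Per genes differ from each other between diets, or whether these bases bear on their levels, was not tested. They are RefSeq sequences in GRCr8, a later build than that used for counting. Each is read 5′ to 3′ on the gene's strand, with matched motifs in capitals.
Per1, chr10:54304126-54304375, plus strand: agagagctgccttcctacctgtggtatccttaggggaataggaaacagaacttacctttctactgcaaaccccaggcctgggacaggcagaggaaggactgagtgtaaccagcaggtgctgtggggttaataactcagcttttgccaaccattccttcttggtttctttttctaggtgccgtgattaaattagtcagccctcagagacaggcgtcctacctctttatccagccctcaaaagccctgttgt
Per2, chr9:99496994-99497243, minus strand: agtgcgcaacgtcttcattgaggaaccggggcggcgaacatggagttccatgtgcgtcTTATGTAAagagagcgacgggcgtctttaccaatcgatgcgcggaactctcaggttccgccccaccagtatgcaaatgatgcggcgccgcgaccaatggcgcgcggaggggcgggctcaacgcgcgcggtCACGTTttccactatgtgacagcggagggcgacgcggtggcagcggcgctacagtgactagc
Per3, chr5:166777801-166778050, minus strand: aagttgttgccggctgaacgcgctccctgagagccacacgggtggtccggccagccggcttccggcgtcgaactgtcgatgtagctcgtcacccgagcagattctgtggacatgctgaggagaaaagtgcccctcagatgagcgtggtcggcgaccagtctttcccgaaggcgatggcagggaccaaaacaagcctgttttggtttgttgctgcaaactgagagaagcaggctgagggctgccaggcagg
Nr1d1, chr10:84229455-84229704, minus strand: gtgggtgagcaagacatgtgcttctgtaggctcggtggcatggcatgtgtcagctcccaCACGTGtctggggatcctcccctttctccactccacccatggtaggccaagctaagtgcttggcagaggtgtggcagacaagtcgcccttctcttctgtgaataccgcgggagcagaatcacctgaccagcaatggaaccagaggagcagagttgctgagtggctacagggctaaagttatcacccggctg
In Per2 the capitals mark a D-box (TTATGTAA), the site type bound by DBP, 192 bases before the start, and an E-box variant (CACGTT) 62 bases before it. Of the 2 windows listed for Nr1d1, that shown has an E-box (CACGTG) marked 191 bases before the start. The other, not shown, holds the E-box variant as AACGTG, 174 bases before its start. The windows of Per1 and Per3 hold no match, and bases outside these windows were not searched. Motifs were searched on both strands, and over 33469 windows of the same length 5.59% held CACGTG, 4.07% CACGTT, 0.932% a D-box (TTATGTAA or TTACGTAA), 14.1% the nuclear receptor half-site AGGTCA and 1.59% TGACGTCA. Of the members 9 had a window, with Cry1 the exception, and 4 of them held a match, the others being Cry2 (AACGTG, which is CACGTT on the other strand) and Nr1d2 (AGGTCA).

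Per2 and Per3, the other period genes, showed no difference between diets that exceeded the spread of the rats. Per2 was at 52.4, 69.2 and 143 CPM in the lowest, median and highest control rat and at 42.4, 72.7 and 92.1 CPM in boldine rats. Per3 was at 33.3, 43.5 and 117 CPM in controls and at 26.4, 69.0 and 109 CPM in boldine rats. In both genes the values of each diet fell into a lower and an upper cluster, which are the library sets described further on. The log2 fold changes were -0.14 (SE 0.28, 95% interval -0.75 to 0.47) for Per2 and 0.22 (SE 0.43, -0.70 to 1.15) for Per3, and -0.06 and 0.21 without rat 6. With the set in the fit and without rat 6 the intervals narrowed, to -0.40 to 0.06 around -0.17 for Per2 and to -0.34 to 0.29 around -0.02 for Per3.

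**Figure D2:**
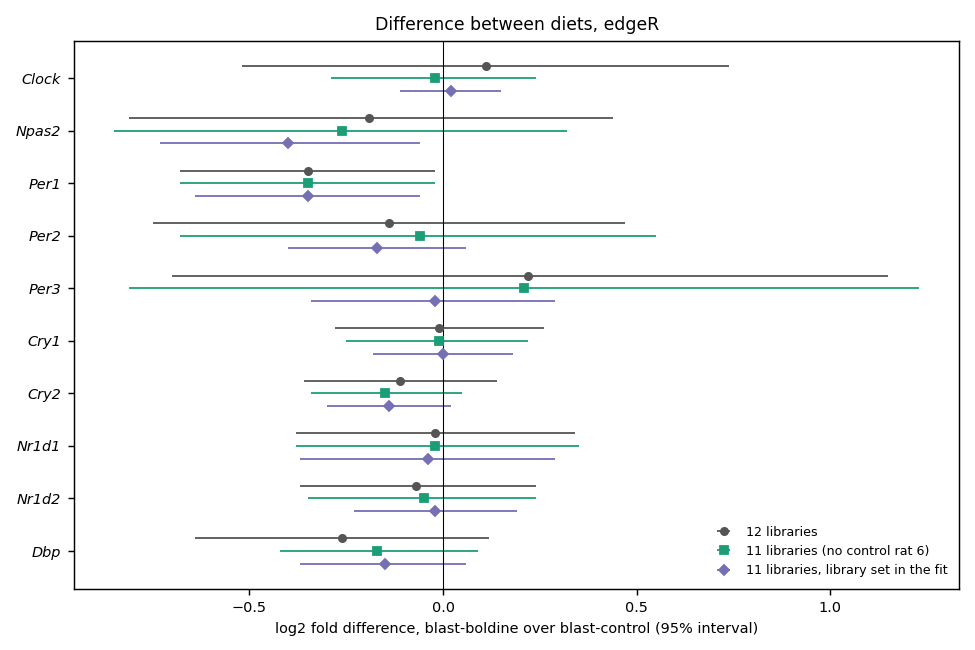
Log2 fold difference between blast-boldine and blast-control rats for each clock gene (point) with its 95% interval (bar) in 3 edgeR fits: all 12 libraries, 11 libraries without control rat 6, and 11 libraries with library set in the fit. The interval of Per1 lies below 0 in each fit, that of Npas2 only with library set in the fit, and the remaining intervals include 0.

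Npas2 (chromosome 9, 41463830 to 41642320, plus strand), which can stand in for CLOCK and is strongly expressed in the forebrain, depended on how the sets were treated. Its level was 15.8, 90.2 and 121 CPM in the lowest, median and highest control rat, the lowest being the single count of rat 6, and 46.5, 76.1 and 125 CPM in the boldine rats. The fold change over all 12 rats was -0.19 on the log2 scale (SE 0.29, unadjusted p = 0.532 in edgeR), and -0.26 (SE 0.27) without rat 6. With library set in the fit and without rat 6 it was -0.40 (SE 0.16, 95% interval -0.73 to -0.06, unadjusted p = 0.0244, adjusted p = 0.898), in a fit that called 5.35% of all genes at an unadjusted p under 0.05. DESeq2 with the same terms called 4.69% of genes at that level, and Npas2 and Per1 were again the members among them. Within set A, the boldine rats had 48.7, 65.7 and 46.5 CPM and the controls 89.4, 91.0 and 60.5, a log2 difference of -0.60 (SE 0.18, unadjusted p = 0.0104, adjusted p = 1, edgeR). In set B the difference was -0.14 (SE 0.18), and the difference between these values was not tested. The exact permutation test within sets and without rat 6 gave p = 0.07.

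Of 3 cortical markers, 1 was also lower in the fit with library set and 11 libraries at an unadjusted p under 0.05, Tbr1 at -0.45 (unadjusted p = 0.00793, adjusted p = 0.898, edgeR), while Cux2 was at -0.44 (unadjusted p = 0.0851) and Lamp5 at 0.01. Over the 11 libraries the sum of these 3 was 124 to 169 CPM in controls and 101 to 167 CPM in boldine rats, with none of them at 0. In the same fit Wfs1, 1 of 3 pyramidal cell markers tested, was at -0.28 (unadjusted p = 0.0113, adjusted p = 0.898, edgeR), and 5 choroid plexus markers were at 0.33 to 1.22, each with an SE of at least 0.98. The part of tissue composition in the Npas2 value was not tested.

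Clock (chromosome 14, 31946383 to 31992673, plus strand), the partner of BMAL1, differed little between rats. Outside rat 6, where no count was seen, it was at 131, 173 and 186 CPM in the lowest, median and highest control and at 140, 157 and 183 CPM in boldine rats. Its log2 fold change was 0.11 (SE 0.29) with rat 6 and -0.02 (SE 0.12) without it, so that the sign rested on that library. With the set in the fit the 95% interval ran from -0.11 to 0.15 around 0.02. Arntl, which encodes its partner, stayed between 49.0 and 58.9 CPM in the 11 libraries and had a log2 fold change of -0.01 (SE 0.12; 0.02, SE 0.09, without rat 6).

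The cryptochromes, which block CLOCK and BMAL1 together with PER, were close between diets. Cry1 (chromosome 7, 18529823 to 18594092, plus strand) was at 13.3, 14.5 and 15.8 CPM in the lowest, median and highest control rat and at 11.7, 14.2 and 15.9 CPM in boldine rats, with a log2 fold change of -0.01 (SE 0.13, 95% interval -0.28 to 0.26; -0.01, SE 0.11, without rat 6). Cry2 (chromosome 3, 78374996 to 78404953, minus strand) was at 111, 148 and 167 CPM in controls and at 128, 135 and 154 CPM in boldine rats. Its lowest control was rat 6; without that rat, all 6 boldine rats lay under the control median of 154 CPM, although 4 of them lay within the control range. The log2 fold change of Cry2 was -0.11 (SE 0.11, unadjusted p = 0.351) and -0.15 (SE 0.09, unadjusted p = 0.136, edgeR) without rat 6, where the exact permutation test gave p = 0.0714.

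The nuclear receptors that close the second loop of the clock differed little between diets. Nr1d1 (chromosome 10, 83728348 to 83735289, minus strand) was at 44.5, 62.9 and 67.9 CPM in the lowest, median and highest control and at 47.2, 54.1 and 73.0 CPM in boldine rats. Nr1d2 (chromosome 15, 7524257 to 7550553, plus strand) was at 82.1, 107 and 141 CPM in controls and at 91.4, 103 and 121 CPM in boldine rats. Their ranges overlapped throughout, with log2 fold changes of -0.02 (SE 0.17, 95% interval -0.38 to 0.34) and -0.07 (SE 0.14, -0.37 to 0.24). Without rat 6 they were -0.02 (SE 0.17) and -0.05 (SE 0.13). Nr1d1 shares 263 exon bases with Thra, the thyroid hormone receptor gene on the opposite strand; counting was by strand, and Thra averaged 458 CPM in set A and 665 CPM in set B.

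Dbp (chromosome 1, 96175796 to 96180745, plus strand), whose transcript has one of the widest daily swings known in mammalian tissue, was at 75.1, 92.9 and 190 CPM in the lowest, median and highest control rat and at 63.7, 79.9 and 93.5 CPM in boldine rats. The value of 190 CPM was that of rat 6 and stood for 12 counts. Of the boldine rats 5 lay under the control median, and 2 (rats 17 and 20) lay under every control. The log2 fold change was -0.26 (SE 0.18, 95% interval -0.64 to 0.12, unadjusted p = 0.157) and -0.17 (SE 0.12, -0.42 to 0.09, unadjusted p = 0.186, edgeR) without rat 6. In the 11 deeper libraries the highest rat held 1.56 times the Dbp level of the lowest.

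Other genes of the clock were examined as lists. Among 8 partners and other core factors, 12 kinases, phosphatases and ubiquitin ligases that act on PER and CRY, and 8 genes known to follow the clock, 0 had an adjusted p or an unadjusted p under 0.05 in edgeR with all 12 rats, without rat 6, or with the set in the fit and without rat 6. Their medians in the 12-rat fit were 0.02, 0.03 and 0.01 on the log2 scale. Arntl2 (Bmal2), a relative of Arntl with at most 4.85 CPM in any rat, had the largest value of these lists, at 0.69 (SE 0.33, unadjusted p = 0.054), and at 0.46 with the set in the fit of all 12 rats (unadjusted p = 0.0455, adjusted p = 1, edgeR). Ciart, a repressor of CLOCK and BMAL1, was at 0.08 (SE 0.21; 0.06 without rat 6), and Bhlhe40, an E-box repressor, at -0.07 (SE 0.16; 0.02 without rat 6). Of the PAR bZIP relatives of Dbp, Tef was at 0.06 (SE 0.20; -0.02 without rat 6) and Hlf at -0.13 (SE 0.19; -0.15 without rat 6). Nfil3, which competes with them for D-boxes, was at -0.35 (SE 0.16, unadjusted p = 0.0515, edgeR) and at -0.34 without rat 6 (unadjusted p = 0.0475) and with the set in that fit (unadjusted p = 0.0334). It ranged from 9.31 to 14.3 CPM in controls other than rat 6, which held 1 count, and from 7.76 to 10.3 CPM in boldine rats. Bhlhe41 and Rora were not analysed here.

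The library sets, unlike the diets, separated Per2, Per3 and Clock without overlap in the 11 deeper libraries. How many of all genes the sets separated in this way was not counted, so this is not shown to be particular to these members. Between sets, 5 of the 10 members and 66.1% of all genes had an adjusted p under 0.05 in edgeR with all 12 rats, and 5 members and 68.2% of genes without rat 6, so the share of members was near that of all genes. The sets had been assigned with the help of these expression values, and the counts are therefore a description. Per3 was at 26.4 to 39.4 CPM in the 6 rats of set A and at 66.7 to 117 CPM in the 5 deeper rats of set B, 2.86-fold higher (95% interval 2.30 to 3.56). Per2 was at 42.4 to 59.4 CPM in set A and at 79.0 to 115 CPM in set B, 1.82-fold higher (1.55 to 2.14). The values of these genes did not overlap between the sets. In rat 6, which belongs to set B by its suffix, Per2 had 9 counts (143 CPM) and Per3 had 3 counts (47.5 CPM).

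Npas2 was 1.66-fold higher in set B (95% interval 1.31 to 2.09), with ranges of 46.5 to 91.0 CPM in set A and 86.4 to 125 CPM in set B. Clock, with 165 to 186 CPM in set A and 131 to 150 CPM in set B, was at 0.802 times (0.732 to 0.878) and Nr1d2 at 0.832 times (0.719 to 0.962) the level of set A. The remaining members had intervals that included no difference, with ratios of 1.06 for Per1, 0.886 for Cry1, 0.973 for Cry2, 1.08 for Nr1d1 and 0.934 for Dbp. Arntl was at 0.954 times (0.862 to 1.06). Per2, Per3 and Npas2 were thus higher in set B, although the ranges of Npas2 overlapped between the sets. Dbp, Nr1d1 and Per1 did not separate by set, and the cause of these patterns was not tested.

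Markers of other cells and regions differed between the same sets. From set A to set B, the median summed level went from 26.4 to 59.3 CPM for 3 thalamic markers, from 99.3 to 259 CPM for 4 endothelial markers and from 257 to 120 CPM for 4 microglial markers; the ranges of the sets did not overlap for these lists. It went from 4900 to 2660 CPM for 4 oligodendrocyte markers, with overlapping ranges. The sum of 5 choroid plexus markers varied widely within both sets, from 13.4 to 1150 CPM in set A and from 7.77 to 1100 CPM in set B. The medians of dentate granule cell markers (316 and 323 CPM) and of pyramidal cell markers (814 and 750 CPM) were closer. The sums of the dentate, pyramidal and thalamic lists hide single markers that moved in opposite directions. Mean Prox1 went from 97.3 CPM in set A to 192 CPM in set B without rat 6. C1ql2 went from 74.3 to 49.4 CPM and Calb1 from 136 to 81.7 CPM. Among the pyramidal cell markers, Wfs1 went from 363 to 445 CPM, Fibcd1 from 213 to 135 CPM and Neurod6 from 239 to 192 CPM. Of the thalamic markers, Prkcd went from 14.6 to 10.9 CPM, while Tcf7l2 and Lef1 were higher in set B. The part of tissue composition, or of library making, in the Per2, Per3 and Npas2 values was not tested.

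**Figure D3:**
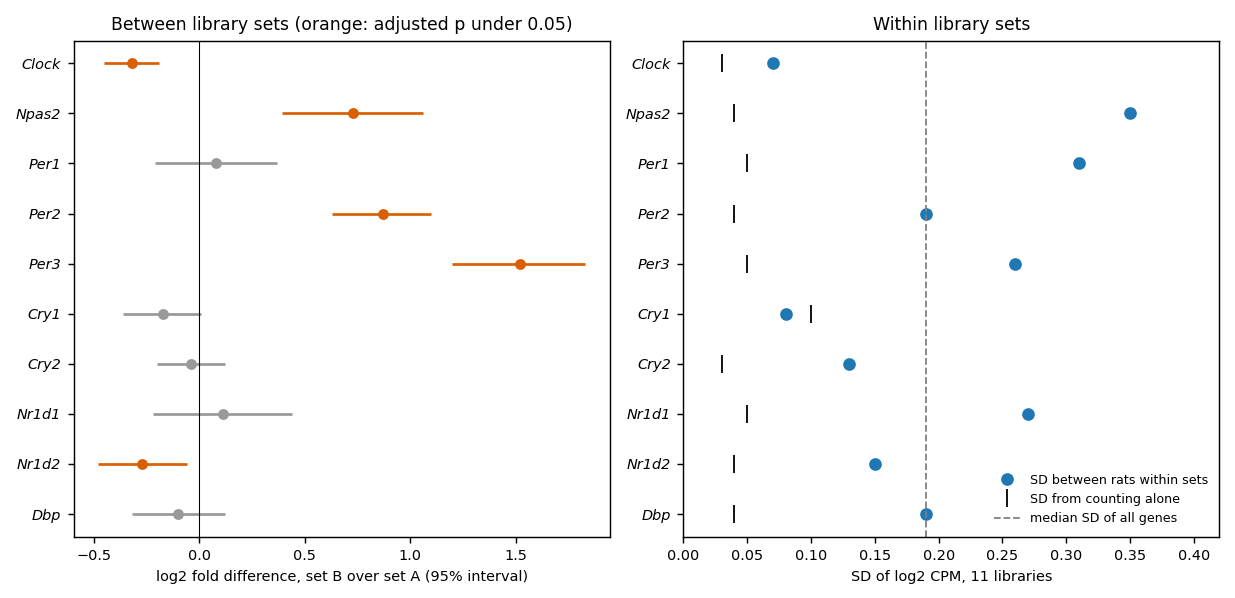
Left, log2 fold difference of each clock gene between library sets B and A over 11 libraries with its 95% interval, orange where the adjusted p was under 0.05. Right, SD of log2 CPM between rats within sets (circles), the SD that counting alone would give (bars) and the median SD of all genes (dashed, 0.19). The circles include any difference between diets. Per3, Per2 and Npas2 lie highest in set B, and Npas2, Per1 and Nr1d1 vary most within sets.

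Within sets, the members fell into variable and steady genes. Set means were removed but diet means were not, so any difference between diets is part of the SD given here. The SD between rats of the log2 level was 0.35 for Npas2, 0.31 for Per1, 0.27 for Nr1d1 and 0.26 for Per3, against a median of 0.19 over 12529 genes. The SD that counting alone gives was at most 0.05 for these genes. Per2 and Dbp, both at 0.19, lay at the median of all genes. Clock (0.07), Cry1 (0.08, under the 0.10 that counting alone gives), Cry2 (0.13) and Nr1d2 (0.15) lay below it. Among genes within a factor of 2 of the same mean level, Npas2 stood at the 97.2 percentile of SD, Per1 at 93.8, Nr1d1 at 90.6, Per3 at 89.0, Per2 at 72.8, Dbp at 70.3, Nr1d2 at 56.3, Cry2 at 45.2, Clock at 4.14 and Cry1 at 1.40. Arntl had an SD of 0.08, and 2.95% of genes had a smaller SD.

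Because most repressor and output genes are known to rise together over the day and against Arntl and Npas2, the correlations among members were examined over the 11 libraries after removal of set means. Arntl is not a member, and the limbs were fixed as Clock and Npas2 against all other members, Cry1 included. The medians by limb therefore describe these pairs and cannot decide whether that daily pattern was present. Of the 45 pairs, 0 had an adjusted p under 0.05 by exact permutation within sets (86400 arrangements), and 6 had an unadjusted p under 0.05. The share of all gene pairs with such an unadjusted p was not computed. The median r was 0.18 over all 45 pairs. It was 0.17 over the 29 pairs within a limb and 0.34 over the 16 pairs that join Clock or Npas2 with a gene of the repressor and output limb. With each rat left out in turn these medians ran from 0.03 to 0.33 and from 0.19 to 0.45, and the median across limbs was above 0 in each of these settings. An r above 0.5 was found in 11 of 45 pairs (24.4%), against 13.9% of all pairs of genes, and an r under -0.5 in 1 pair, against 13.7% of all pairs. The sign of r was the same in both sets in 22 of 45 pairs.

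**Figure D4:**
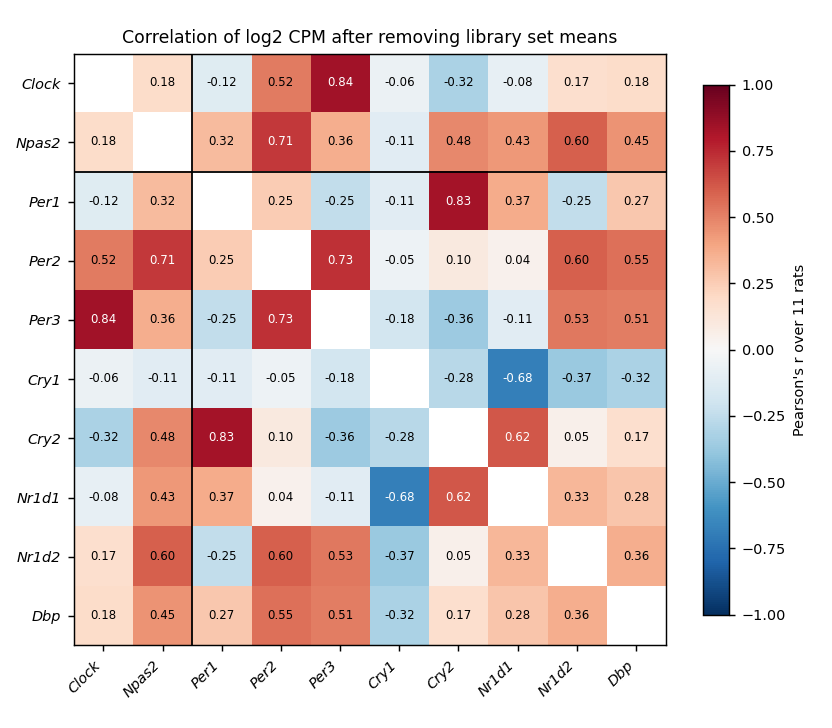
Pearson's r between each pair of clock genes over 11 rats (log2 CPM with library set means removed; red positive, blue negative), with lines that divide the activators Clock and Npas2 from the repressor and output genes. The highest values are 0.84 for Clock with Per3 and 0.83 for Per1 with Cry2, and the lowest is -0.68 for Cry1 with Nr1d1.

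Several pairs with a high r rested on a few rats; for each pair, r was computed again without the 2 rats farthest from the median of the first gene named. Clock and Per3 had r = 0.84 (exact permutation p = 0.007, adjusted p = 0.218) and Spearman's rho = 0.64 (exact permutation p = 0.0543, adjusted p = 0.378), and r dropped to 0.31 without rats 4 and 20. Per1 and Cry2 had r = 0.83 (exact permutation p = 0.0101, adjusted p = 0.218) and rho = 0.76 (exact permutation p = 0.014, adjusted p = 0.315), and r dropped to 0.37 without the same rats. The r of these pairs thus depended on rats 4 and 20, which lie in different sets, although it was 0.84 in set A and 0.85 in set B for Clock and Per3, and 0.71 and 0.92 for Per1 and Cry2. Per2 and Per3 had r = 0.73 (exact permutation p = 0.0211, adjusted p = 0.218) and rho = 0.65 (exact permutation p = 0.0419, adjusted p = 0.377), with r = 0.47 without rats 5 and 20. Npas2 and Per2 had r = 0.71 (exact permutation p = 0.0242, adjusted p = 0.218) and rho = 0.68 (exact permutation p = 0.0361, adjusted p = 0.377), with r = 0.62 without rats 1 and 7. In sets A and B, r was 0.65 and 0.82 for Per2 and Per3, and 0.90 and 0.37 for Npas2 and Per2.

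Cry2 and Nr1d1 had r = 0.62 (exact permutation p = 0.046, adjusted p = 0.345) and rho = 0.67 (exact permutation p = 0.0307, adjusted p = 0.377), with r = 0.72 without rats 1 and 4, 0.92 in set A and 0.44 in set B. Cry1 and Nr1d1 had r = -0.68 (exact permutation p = 0.0226, adjusted p = 0.218) and rho = -0.75 (exact permutation p = 0.0104, adjusted p = 0.315), with r = -0.61 without rats 1 and 12, and r was -0.57 in set A and -0.74 in set B. Cry1 transcripts are known to peak later in the day than those of the other repressors. Whether the rats differed in the hour of sampling was not tested, since no hour is given.

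Arntl, the gene that runs in antiphase to Dbp over the day, had r = -0.47 with Dbp (exact permutation p = 0.212, adjusted p = 0.509; rho = -0.45, exact permutation p = 0.231, adjusted p = 0.63), with r = -0.52 without rats 12 and 19. Among 60 pairs of a member with Arntl, Ciart, Tef, Hlf, Nfil3 or Bhlhe40, 0 had an adjusted p under 0.05 and 10 had an unadjusted p under 0.05 by exact permutation. The share of all gene pairs with such an unadjusted p was not computed, so 10 of 60 is not shown to be an excess. Of all pairs of genes, 13.9% had an r above 0.5 and 13.7% an r under -0.5. Tef, a relative of Dbp, ran against Nr1d2 (r = -0.85, exact permutation p = 0.0014, adjusted p = 0.0669; rho = -0.82, exact permutation p = 0.00572, adjusted p = 0.0572), with r = -0.87 without rats 4 and 5. Hlf ran with Nr1d1 (r = 0.80, exact permutation p = 0.00223, adjusted p = 0.0669; rho = 0.75, exact permutation p = 0.005, adjusted p = 0.0572), with r = 0.91 without rats 1 and 20. Ciart ran with Nr1d2 (r = 0.76, exact permutation p = 0.00339, adjusted p = 0.0678; rho = 0.83, exact permutation p = 0.00424, adjusted p = 0.0572), with r = 0.77 without rats 4 and 20.

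The genes most like Dbp over the 11 libraries, by Pearson's r of log2 CPM with set means removed, were Nme6 and Rasal2 (both 0.88), Hecw2 (0.86), Marchf10, Ica1l and Tcap (each 0.85), and Npsr1 and Lrrc17 (both 0.84). The most opposed were Slc25a40 (-0.87), Tafa5, Apaf1 and Mtmr7 (each -0.84), Klhl7 and Fpgt (both -0.83), and Socs1 and Uxt (both -0.82). No member and no gene of the clock lists was among these 16. Of 12528 genes ranked by r with Dbp, Per2 stood at rank 430 (r = 0.55), Per3 at 598 (r = 0.51), Ciart at 658 (r = 0.49), Npas2 at 934 (r = 0.45) and Nr1d2 at 1550 (r = 0.36). Nr1d1 (2348), Per1 (2402), Clock (3509) and Cry2 (3688) had an r of 0.17 to 0.28. At the other end stood Cry1 at 10398 (r = -0.32), Tef, a relative of Dbp, at 11258 (r = -0.40) and Arntl at 11679 (r = -0.47).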

How the data were processed

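Stranded total RNA libraries depleted of ribosomal RNA were screened, deduplicated and trimmed by the authors with HTStream, aligned with STAR 2.7.11b to mRatBN7.2 (up to 20 alignments per read allowed) and counted over RefSeq exons by gene name and strand with featureCounts (Subread 2.0.1). The deposited values are raw counts for 17494 genes in 12 libraries, without normalization; because duplicates had been removed and reads with several alignments were allowed, counts of very abundant or duplicated genes may be affected. Totals were 10148474 to 40850106 counts per library, and 74008 in blast-control rat 6.

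Genes were tested in edgeR 4.0.16 (R 4.3.3) with TMM normalization, filterByExpr (minimum count 10), the quasi-likelihood test, treatment as the only term and Benjamini-Hochberg adjustment over all genes tested. Log2 CPM used a prior count of 2. Single genes were also compared by exact two-sided permutation of group means (924 assignments, 400 within library sets; 462 and 200 without rat 6, with 0.00216 or 0.005 the smallest p possible). Correlations used 11 libraries centred on library set. Nothing in the labels says how rats were housed or processed together, and the p-values measure the spread between these rats. Floors of 3 counts and the SD from counting cover counting error only. The alternatives were DESeq2 1.42.0, RLE size factors, no filter, library set as a covariate, and each rat left out; fits within each library set were added after seeing the data. The edgeR step was tested on simulated data. Python 3.11.15 with scipy 1.17.1 and matplotlib 3.10.9 served for permutation tests and plots.

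The 10 members and all gene lists were chosen with earlier results of these data known. Named genes are the members, Arntl, Ciart, Tef, Hlf, Nfil3 and Bhlhe40, genes of the clock lists with an unadjusted p under 0.05 in edgeR with all rats or with library set and 11 libraries, and the 8 genes at each end of likeness to Dbp; the cortical markers are named because their values bear on a member, and some genes of the lists are not reported here. Gene positions are those of the count table. Promoter sequences come from RefSeq (GRCr8).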

Additional observations from a re-analysis of the deposited data

Results flagged for a closer look

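In 30 groups of values (10 genes in blast-boldine rats and in blast-controls with and without rat 6), 3 held a rat whose gap to its nearest neighbour took an unusually large share of the group's range; chance alone gives such a gap in about 1 of 20 groups. Clock was at 0 CPM in blast-control rat 6, against 131 CPM in the next rat, a gap of 0.70 of the range. Dbp was at 190 CPM in the same rat, against 99.6 CPM in the next, a gap of 0.79 of the range. Both are values of the library with 74008 counts, of which Clock took 0 and Dbp 12, and neither gene had such a gap among the other 5 controls. Cry2 was at 154 CPM in blast-boldine rat 32, against 136 CPM in the next boldine rat, a gap of 0.69 of the range; this value lay within the range of the blast-controls, and its cause was not tested.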

How the results depend on the processing

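In all 20 alternatives, 0 members passed an adjusted p of 0.05, with 0.775 the smallest adjusted p, and 178 of 200 fitted fold changes kept their sign. The number of members past an unadjusted p of 0.05 was 2 (Npas2 and Per1) with library set and 11 libraries in edgeR and in DESeq2, and 0 to 1 when single rats were left out. It was 0 without control rat 4, 7 or 9 or boldine rat 17, 19, 20 or 35. With single rats left out, log2 fold changes ran from -0.02 to 0.20 for Clock, -0.36 to -0.06 for Npas2, -0.42 to -0.25 for Per1, -0.25 to 0.07 for Per2, 0.04 to 0.62 for Per3, -0.05 to 0.04 for Cry1, -0.15 to -0.06 for Cry2, -0.10 to 0.04 for Nr1d1, -0.15 to 0.05 for Nr1d2 and -0.34 to -0.17 for Dbp. The sign turned with library set as a covariate for Cry1 (0.00), with library set and 11 libraries for Per3 (-0.02) and Cry1 (0.00), in DESeq2 with these terms for Per3 (-0.02) and Cry1 (0.01), within set A for Clock (-0.03), Per3 (-0.18) and Cry1 (0.08), and within set B for Nr1d1 (0.19) and Nr1d2 (0.08); the cause was not tested.

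The direction of the permutation comparison turned without rat 6 for Clock (exact permutation p = 0.935) and Npas2 (exact permutation p = 0.312), and within sets and 11 libraries for Npas2 (exact permutation p = 0.07) and Nr1d2 (exact permutation p = 0.955). Over the single rats left out, the median r ran from 0.03 to 0.33 within a limb and from 0.19 to 0.45 across limbs; centred on set and treatment it was 0.08 and 0.30, and with Spearman's rho 0.17 and 0.32. No paired analysis was possible because the groups share no rat number. With 6 rats per group the 95% interval of the fitted log2 difference ran to 1.15 for Per3 and to -0.81 for Npas2. The shallow library limits Clock, Npas2, Cry1 and Per3 most, each with 3 counts or fewer there.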
